A study of Homo sapiens with 18 samples.

Results

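COL1A1, KRT8 and KRT18 are genes usually met outside the B cell lineage, and their counts are described here in the lymphoma cell line HAIR-M, given in the labels as MZL (marginal zone lymphoma, a tumour of mature B cells). They are 3 of the 60483 gene identifiers in the deposited count tables, chosen by symbol, with COL1A2, COL3A1 and KRT19 set beside them as controls with almost no reads. The 18 libraries form 6 groups of 3: cells given 5 nM of the PI3K (phosphoinositide 3-kinase) inhibitor copanlisib for 4, 8 or 12 h, and cells given the solvent DMSO for the same times. All libraries come from 1 line, and the labels do not say that the replicates were separate cultures, so the spread behind each p-value may be technical. The members were picked with their 8 h difference in view. That difference is therefore given without a test, and tests are given for 4 h, for 12 h, for the difference between these effects and for time in DMSO. Earlier results of this series were known when the members were chosen, so these p-values may not be free of that choice.

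COL1A1 encodes the alpha 1 chain of type I collagen, the main fibre protein of skin, bone and tendon. Fibroblasts and osteoblasts assemble it with the chain from COL1A2 into a triple helix. KRT8 and KRT18 encode the type II and type I keratins that pair into the intermediate filaments of simple epithelia such as liver and gut. KRT19 is another type I keratin of simple and ductal epithelia, and COL3A1 encodes the chain of type III collagen, which fibroblasts make beside type I.

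Gene reads ranged from 13587017 to 25566761 per library, and levels are CPM (counts relative to the total of these reads), scaled between libraries. In the 4 h copanlisib group, replicates 1 and 2 differed from the rest of the series: 5.22% to 8.73% of their reads were unmapped, against 1.74% to 2.82% in the other 16 libraries, and mitochondrial genes took 12.4% to 12.6% of their gene reads, against 9.07% to 10.5%. The 4 h results of the members are therefore also given from a fit that keeps replicate 3 alone as the 4 h copanlisib group. For several gene lists, though not all, the median 4 h log2 fold change from that fit is given. In that fit the lone library is assumed to vary like the other groups.

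COL1A1 lies on the minus strand of chromosome 17 (hg38, 50183289 to 50201632 in GENCODE 29). KRT8 lies on the minus strand of chromosome 12 (52897187 to 52949954), and KRT18 on the plus strand of the same chromosome (52948871 to 52952901). The genes of this keratin pair overlap by 1084 bases, in which exons of both cover 525 bases in 2 segments. Of the annotated transcripts, 8 of 17 for KRT8 and 5 of 7 for KRT18 have an exon there. The stretch of KRT18 coding sequence below is shown because exons of both genes are annotated on it (GENCODE 29 transcript KRT18-201 bases 468 to 579, hg38 chr12:52949431-52949542, plus strand). Exons of KRT8 cover the whole stretch on the opposite strand, and capitals mark the 62 bases within it that form an exon of the transcript KRT8-217.
KRT18: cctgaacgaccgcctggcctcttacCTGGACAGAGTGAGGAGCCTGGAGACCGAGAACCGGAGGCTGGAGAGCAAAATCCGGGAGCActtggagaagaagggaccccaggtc

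KRT8 also has many pseudogenes, copies of differing likeness elsewhere in the genome, and the one with the most reads is KRT8P12. A stretch of 100 coding bases of KRT8 (transcript KRT8-201 bases 1543 to 1642, hg38 chr12:52897434-52897533, minus strand) and its match in KRT8P12 (hg38 chr3:160569141-160569240, plus strand) are shown because reads of one can resemble the other. Capitals mark the 6 bases that differ.
KRT8: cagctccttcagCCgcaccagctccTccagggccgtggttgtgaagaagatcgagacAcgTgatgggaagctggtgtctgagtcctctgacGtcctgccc
KRT8P12: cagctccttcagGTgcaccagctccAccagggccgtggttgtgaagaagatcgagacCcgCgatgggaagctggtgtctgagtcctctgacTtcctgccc

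All 3 genes had reads in 18 of 18 libraries, while COL1A2, COL3A1 and KRT19 had almost none. COL1A1 had 222 to 695 reads per library and 6967 in all, KRT8 had 214 to 517 and 5568 in all, and KRT18 had 278 to 671 and 8179 in all. COL1A2, the partner chain of type I collagen, had 4 reads summed over all libraries, in 2 of them. COL3A1 had 7 reads in 6 libraries and KRT19 had 1 read in 1 library. A floor of 3 reads in 1 library corresponds to 0.117 to 0.221 CPM, counting error only, and the highest value of any of these controls was 0.104 CPM. In bulk libraries, fewer cells that hold an RNA and less of it per cell cannot be told apart. The controls did not pass the filter on low counts, so no change in them was detectable at this depth. By median CPM, COL1A1 (18.99 CPM) stood above 51.6% of the 16122 genes tested, KRT8 (15.3 CPM) above 47.8% and KRT18 (23.8 CPM) above 56.3%.

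Per length of RNA the 3 genes ranked in the same order under both lengths tried. For KRT8 the principal transcript was KRT8-216 (2126 bases), not the shorter KRT8-201 (1882 bases) used for the sequence comparisons. With the principal transcript as the length, the level in copanlisib libraries at 12 h was 17.4 ± 1.17 CPM per kb for KRT18, 9.28 ± 0.45 for KRT8 and 3.89 ± 0.22 for COL1A1, and in DMSO libraries at 12 h it was 13.7 ± 0.10, 6.40 ± 0.13 and 2.18 ± 0.28 CPM per kb (SD, n = 3 each). With all annotated exons merged, the levels at 12 h with copanlisib were 8.45 ± 0.57, 2.87 ± 0.14 and 2.66 ± 0.15 CPM per kb, so that KRT8 and COL1A1 then lay close together. The ratio of KRT8 to KRT18 per kb of principal transcript had a median of 0.506 over the 18 libraries, with a range of 0.399 to 0.596. It was 0.535 ± 0.056 in copanlisib and 0.466 ± 0.011 in DMSO libraries at 12 h. At 8 h it was 0.530 ± 0.031 with copanlisib and 0.558 ± 0.051 with DMSO, and these groups overlapped. At 4 h it was 0.461 ± 0.080 with copanlisib and 0.452 ± 0.066 with DMSO. Per kb of merged exon the ratio had a median of 0.322, with a range of 0.254 to 0.380.

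At 4 h, copanlisib and DMSO libraries overlapped for all 3 genes. COL1A1 was at 18.5, 14.7 and 20.4 CPM in the copanlisib libraries (replicates 1 to 3), against 16.4, 19.9 and 16.8 CPM in the DMSO libraries. KRT8 was at 13.1, 12.6 and 18.2 CPM with copanlisib, against 15.8, 13.4 and 14.4 CPM with DMSO. KRT18 was at 22.2, 23.3 and 24.2 CPM with copanlisib, against 22.1, 24.5 and 24.7 CPM with DMSO. For each gene, replicate 3 was the highest of the copanlisib libraries. None of the 3 passed edgeR's quasi-likelihood test at 4 h, where 38.4% of all genes tested did. The log2 fold change was 0.0032 ± 0.10 (SE) for COL1A1 (95% interval -0.20 to 0.21, edgeR adjusted p = 0.98), 0.013 ± 0.10 for KRT8 (interval -0.19 to 0.22, adjusted p = 0.94) and -0.039 ± 0.071 for KRT18 (interval -0.18 to 0.099, adjusted p = 0.70). With replicate 3 as the only copanlisib library, KRT8 passed at 0.34 ± 0.11 (edgeR adjusted p = 0.016), in a fit that called 8.86% of genes higher. COL1A1 was then at 0.20 ± 0.11 (adjusted p = 0.21) and KRT18 at 0.023 ± 0.093 (adjusted p = 0.90). The part of the 2 libraries that stood apart in these 4 h values was not tested further.

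**Figure D1:**
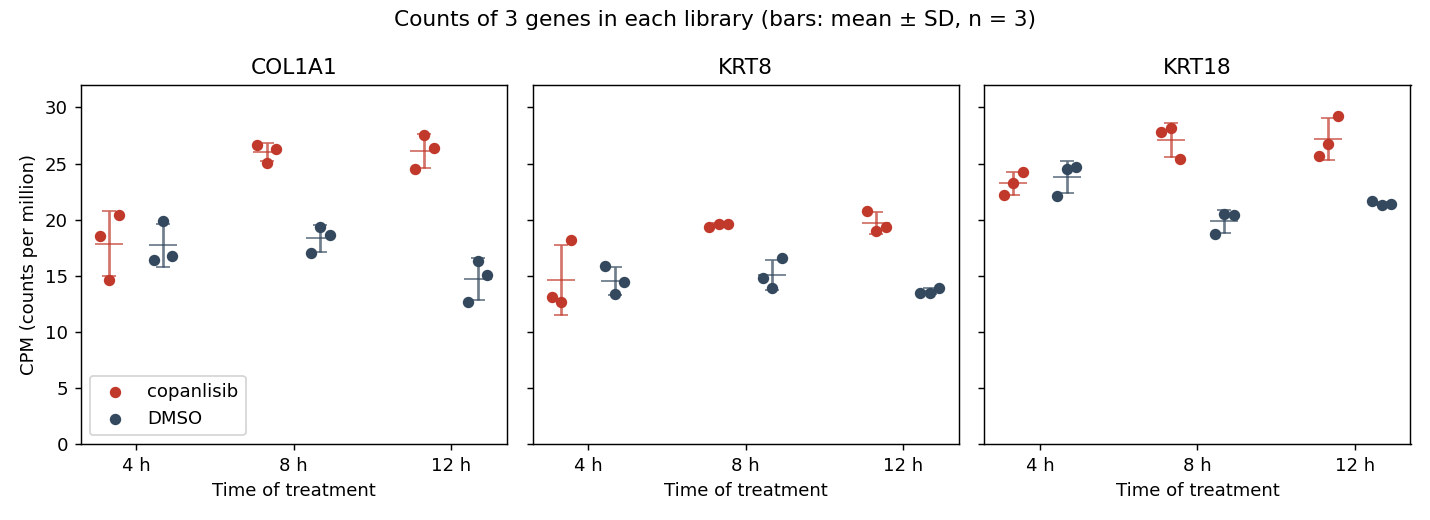
Level of COL1A1, KRT8 and KRT18 in CPM (y axis) at 4, 8 and 12 h (x axis), with a point for each library, copanlisib in red at the left and DMSO in dark blue at the right, and bars for the mean ± SD of 3 libraries. The groups overlap at 4 h and are apart at 8 h and 12 h, where the copanlisib libraries of KRT8 lie between 18.999 and 20.8 CPM and the DMSO libraries between 13.4 and 16.5 CPM.

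At 8 h, every copanlisib library was above every DMSO library for each gene, an arrangement that 24.5% of all genes tested showed in that direction. COL1A1 was at 26.7, 25.1 and 26.3 CPM with copanlisib, against 17.05, 19.4 and 18.6 CPM with DMSO. KRT8 was at 19.4, 19.6 and 19.6 CPM with copanlisib, against 14.8, 13.9 and 16.5 CPM with DMSO. KRT18 was at 27.8, 28.1 and 25.4 CPM with copanlisib, against 18.7, 20.5 and 20.4 CPM with DMSO. As a description only, since these values were known when the genes were picked, the log2 fold changes were 0.51 ± 0.098 (SE) for COL1A1, 0.38 ± 0.099 for KRT8 and 0.45 ± 0.070 for KRT18.

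At 12 h, all 3 genes rose with copanlisib, as did 13.8% of all genes tested. COL1A1 was at 24.5, 27.5 and 26.4 CPM with copanlisib, against 12.7, 16.3 and 15.1 CPM with DMSO, a 1.78-fold difference. On the log2 scale the difference was 0.83 ± 0.10 (SE), with an edgeR adjusted p = 5.1e-07. KRT8 was at 20.8, 18.999 and 19.3 CPM with copanlisib, against 13.4, 13.5 and 13.9 CPM with DMSO, a 1.45-fold difference. The groups did not overlap for either gene, an arrangement that 21.9% of all genes tested showed in this direction. The log2 fold change of KRT8 was 0.53 ± 0.10 (edgeR adjusted p = 0.00020). KRT18 was at 25.6, 26.7 and 29.2 CPM with copanlisib, against 21.6, 21.3 and 21.4 CPM with DMSO, a 1.27-fold difference without overlap. Its log2 fold change was 0.34 ± 0.071 (edgeR adjusted p = 0.00049). Leaving out any 1 library of this comparison kept each of these calls.

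The effect of copanlisib was larger at 12 h than at 4 h for all 3 genes when all libraries were used, a call that 8.98% of genes tested shared in this direction. The effect at 12 h minus that at 4 h was 0.83 ± 0.15 on the log2 scale for COL1A1 (edgeR adjusted p = 0.00050), 0.52 ± 0.15 for KRT8 (adjusted p = 0.016) and 0.38 ± 0.10 for KRT18 (adjusted p = 0.010). With replicate 3 as the only copanlisib library at 4 h, the difference held for COL1A1 at 0.63 (edgeR adjusted p = 0.0018). It did not pass for KRT8 at 0.20 (adjusted p = 0.46) or for KRT18 at 0.32 (adjusted p = 0.096). For KRT8 it also failed to pass without replicate 2 of copanlisib at 4 h, at 0.41 (adjusted p = 0.072), and with its pseudogenes summed, at 0.32 (adjusted p = 0.066). For KRT18 it failed to pass in the counts without strand, at 0.29 (edgeR adjusted p = 0.061).

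**Figure D2:**
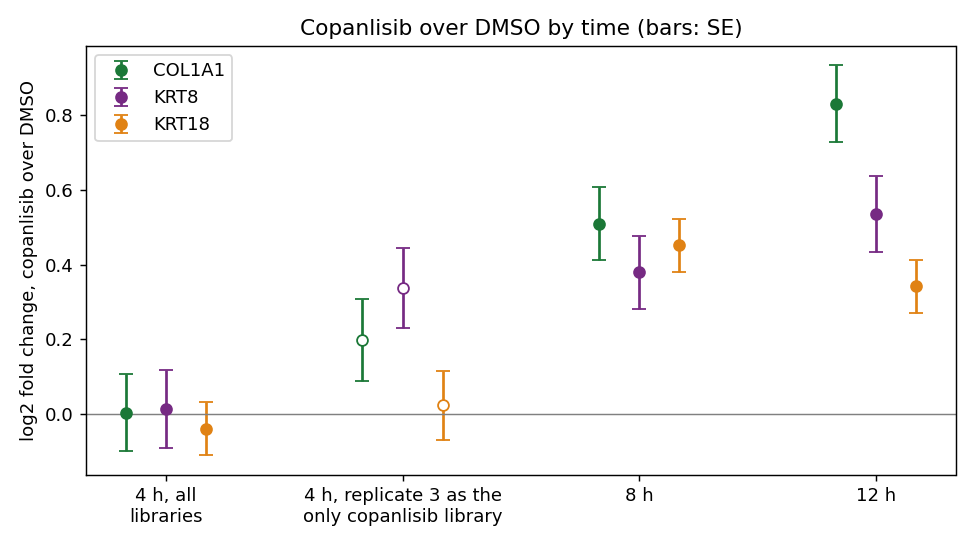
Log2 fold change of copanlisib over DMSO (y axis) for COL1A1, KRT8 and KRT18 by time (x axis), from 1 fit of all 18 libraries (filled points) and, for 4 h, with replicate 3 as the only copanlisib library (open points); bars are SE. COL1A1 is at 0.0032 at 4 h and 0.83 at 12 h, and the open point of KRT8 at 4 h is at 0.34.

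In the DMSO libraries, which are also the controls of the copanlisib comparisons, COL1A1 was lower at 12 h than at 4 h, while its 8 h mean was 18.3 ± 1.19 CPM. It averaged 14.7 ± 1.87 CPM in DMSO libraries at 12 h and 17.7 ± 1.93 CPM in those at 4 h (SD, n = 3 each), without overlap, where 30.0% of genes tested were lower without overlap. It fell by 0.28 ± 0.11 on the log2 scale (edgeR adjusted p = 0.034), a call that 25.4% of genes shared in this direction. The call was lost without replicate 1 (adjusted p = 0.21) or replicate 3 (adjusted p = 0.055) of DMSO at 12 h, and without replicate 2 of DMSO at 4 h (adjusted p = 0.28). KRT8 averaged 13.6 ± 0.27 CPM at 12 h and 14.5 ± 1.24 CPM at 4 h in DMSO (-0.085 ± 0.11, edgeR adjusted p = 0.54). KRT18 averaged 21.5 ± 0.16 CPM at 12 h and 23.8 ± 1.44 CPM at 4 h in DMSO, without overlap but short of the threshold (-0.15 ± 0.072, edgeR adjusted p = 0.081). Without replicate 1 of DMSO at 4 h, KRT18 passed (adjusted p = 0.042).

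Over all 6 groups, copanlisib at 12 h and at 8 h held the highest 2 mean levels of each gene. For COL1A1 these were 26.1 ± 1.51 CPM at 12 h and 26.0 ± 0.84 CPM at 8 h, within their spread of each other. Copanlisib at 4 h (17.9 ± 2.93 CPM) overlapped with DMSO at 8 h (18.3 ± 1.19 CPM), at 4 h and at 12 h, and DMSO at 12 h was the lowest group. For KRT8, copanlisib was at 19.7 ± 0.96 CPM at 12 h and 19.5 ± 0.15 CPM at 8 h, and these groups overlapped. The other 4 groups had means between 13.6 and 15.1 CPM, and their highest library, replicate 3 of copanlisib at 4 h, lay below the lowest library of copanlisib at 12 h. For KRT18, copanlisib was at 27.2 ± 1.83 CPM at 12 h and 27.1 ± 1.48 CPM at 8 h, again overlapping. DMSO at 4 h (23.8 ± 1.44 CPM) overlapped with copanlisib at 4 h (23.2 ± 1.01 CPM), while DMSO at 8 h (19.9 ± 1.03 CPM) was lowest and did not overlap with DMSO at 12 h (21.5 ± 0.16 CPM).

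Because KRT8 and KRT18 are read from opposite strands of overlapping DNA, their counts were split into reads inside and outside the shared exons, a split added after the data were seen. Between 117 and 316 reads per library lay on exons of both genes, and the strand left 0 to 10 of them undecided. A median of 30.6% of the KRT8 reads (range 24.3% to 36.0%) and 23.8% of the KRT18 reads (19.7% to 26.5%) lay in the shared exons. Reads on the opposite strand of COL1A1, which has no such neighbour in this set, made up 0.840% of its stranded reads, against 26.0% for KRT8 and 17.1% for KRT18. The KRT8 transcripts with an exon there begin far upstream of the start of KRT8-201, which lies 42253 bases from the start of KRT18.

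Both parts of each keratin rose at 12 h. KRT8 reads outside the shared exons averaged 13.5 ± 0.94 CPM in copanlisib and 9.29 ± 0.63 CPM in DMSO libraries (SD, n = 3 each), which is 0.54 ± 0.12 on the log2 scale (SE, edgeR adjusted p = 0.0010). KRT8 reads inside them averaged 6.19 ± 0.043 CPM with copanlisib and 4.33 ± 0.46 CPM with DMSO (0.52 ± 0.14, edgeR adjusted p = 0.0044). KRT18 reads outside the shared exons averaged 20.3 ± 1.81 CPM with copanlisib and 16.2 ± 0.18 CPM with DMSO (0.32 ± 0.074, edgeR adjusted p = 0.0013). KRT18 reads inside them averaged 6.93 ± 0.15 CPM with copanlisib and 5.25 ± 0.34 CPM with DMSO (0.40 ± 0.13, edgeR adjusted p = 0.019). Without the reads of the shared exons, the 12 h log2 fold change was thus 0.54 for KRT8 and 0.32 for KRT18, against 0.53 and 0.34 with them. At 4 h none of the 4 parts passed (edgeR adjusted p between 0.18 and 0.99).

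**Figure D3:**
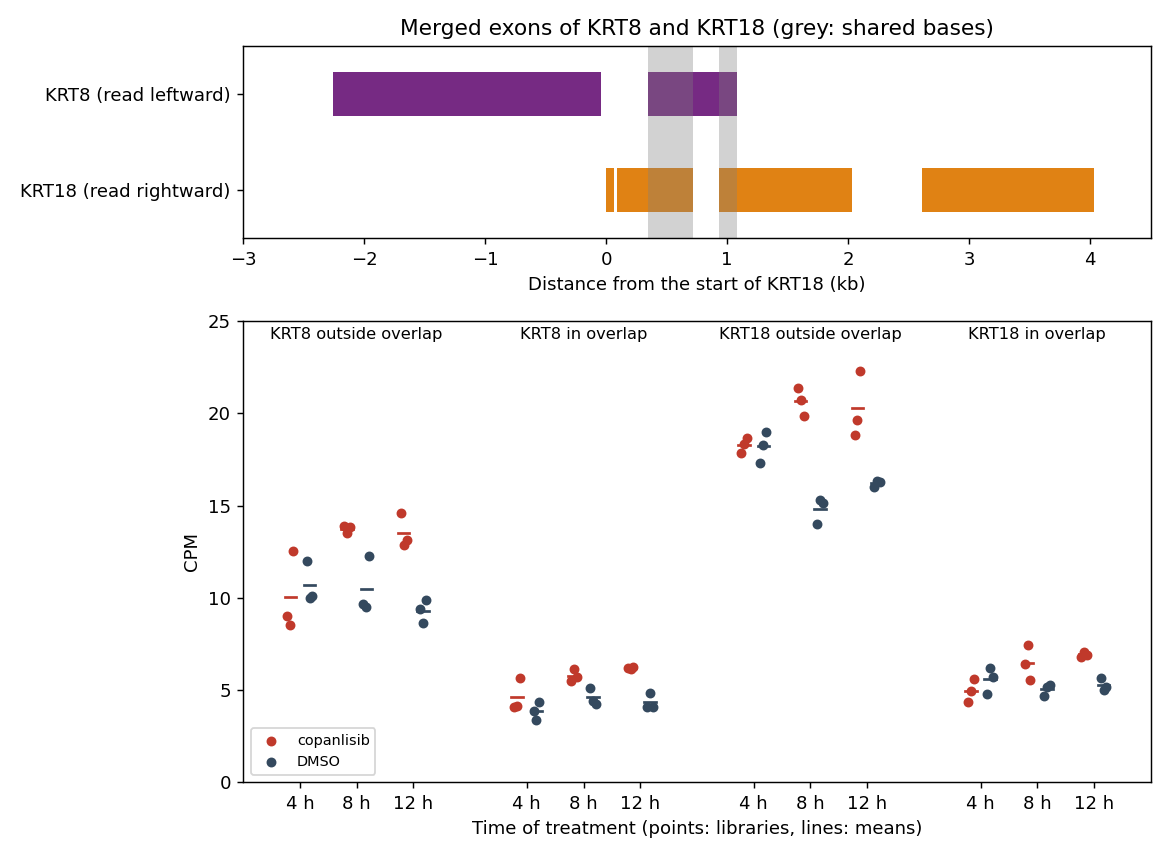
Upper panel: merged exons of KRT8 and KRT18 by distance from the start of KRT18 in kb (x axis), with shared bases in grey. Lower panel: CPM (y axis) of the reads outside and inside the shared exons at 4, 8 and 12 h (x axis), with a point per library and a line at the mean, copanlisib in red at the left and DMSO in dark blue at the right; at 12 h the KRT8 reads inside average 6.19 CPM with copanlisib and 4.33 CPM with DMSO.

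Copies of the keratin genes limit how exactly their reads can be placed. Of all 50-base stretches of the transcript KRT8-201, 37.1% occur letter for letter in at least 1 other annotated gene, as do 31.8% of those of KRT18-201 and none of those of COL1A1-201. At 100 bases the share was 6.73% for KRT8 and 0 for KRT18. Of 51 annotated KRT8 pseudogenes, 21 had reads and 6 were tested, and none of the 6 changed with copanlisib at 4, 8 or 12 h by edgeR. With replicate 3 as the only copanlisib library at 4 h, 1 of them, KRT8P33, was higher (log2 fold change 1.24 ± 0.42, edgeR adjusted p = 0.024). KRT8P12, which aligned to KRT8 over 1461 bases at 86.1% identity, had 2407 reads in all. The stretch shown above was picked as its closest match, so the rest of the alignment differs more. It averaged 6.25 ± 0.50 CPM with copanlisib and 7.04 ± 0.35 CPM with DMSO at 12 h (log2 fold change -0.17 ± 0.10, edgeR adjusted p = 0.23). When KRT8 and its pseudogenes were summed, the 12 h log2 fold change was 0.32 (edgeR adjusted p = 0.0054). Of 67 KRT18 pseudogenes, 28 had reads and none passed the filter, and their sum was 0.676 to 1.47 CPM per library.

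Among the other collagens, a subset rose with copanlisib at 8 h and 12 h. Of 44 collagen genes named in the annotation, 41 had reads and 21 were tested, COL1A1 included. Per kb of merged exon, COL1A1 had a median of 1.93 CPM, below COL9A2 (19.2) and COL22A1 (7.99) and next to COL4A5 (1.51). COL9A2 encodes a chain of type IX collagen, known from cartilage, and COL4A5 a chain of the basement membrane collagen type IV. At 12 h, 5 of the other 20 tested collagens rose and none fell (median log2 fold change 0.30, against 0.0044 over all genes tested, of which 13.8% rose and 16.5% fell). They were COL18A1 at 0.86 ± 0.20 (edgeR adjusted p = 0.0018), COL19A1 at 0.84 ± 0.15 (adjusted p = 0.00013), COL24A1 at 0.57 ± 0.15 (adjusted p = 0.0058), COL9A2 at 0.29 ± 0.055 (adjusted p = 0.00022) and COL22A1 at 0.25 ± 0.047 (adjusted p = 0.00017). COL18A1, whose cleaved end is endostatin, averaged 3.56 ± 0.39 CPM with copanlisib and 1.96 ± 0.39 CPM with DMSO. At 8 h, 7 of the 20 rose and none fell (median 0.20, with 14.8% of all genes higher and 18.3% lower), COL7A1 and COL5A3 among them. At 4 h none rose and 2 fell, COL7A1 and COL18A1 (median -0.044, with 17.7% of all genes higher and 20.7% lower). This 4 h median was 0.097 when replicate 3 stood alone for copanlisib.

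Keratins other than KRT8 and KRT18 were few. Of 67 keratin genes and keratin pseudogenes named with a number, 23 had reads and 6 were tested. The 4 besides the members were KRT7, KRT10, KRT17 and KRT86. KRT10, a type I keratin of the upper epidermis, had a median of 3.65 CPM per kb of merged exon, against 7.38 for KRT18 and 2.22 for KRT8. KRT7, a simple-epithelial type II keratin, had 0.626 CPM per kb. None of these 4 passed with copanlisib at any time. At 12 h KRT7 was at 0.41 ± 0.17 (edgeR adjusted p = 0.065), KRT86 at 1.14 ± 0.44 (adjusted p = 0.051), KRT10 at 0.12 ± 0.14 (adjusted p = 0.58) and KRT17 at 0.039 ± 0.42 (adjusted p = 0.96) on the log2 scale.

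**Figure D4:**
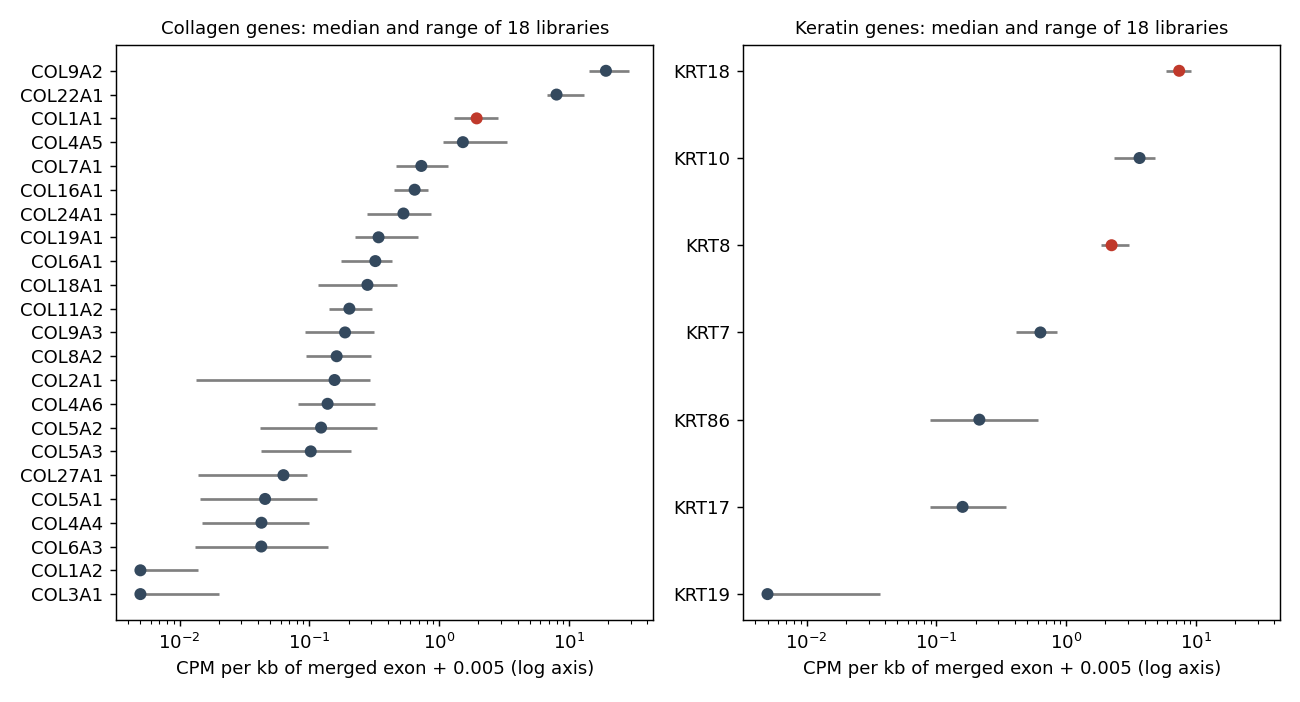
Median and range over 18 libraries of the tested collagen genes (left) and keratin genes (right), with COL1A2, COL3A1 and KRT19, in CPM per kb of merged exon plus 0.005 on a log axis; members are in red. COL1A1 lies below COL9A2 and COL22A1 with a median of 1.93 CPM per kb, and the 3 control genes lie at the lower end.

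Among genes that modify, fold and export collagen, more fell than rose. Of 35 tested at 12 h, 13 fell and 4 rose (median log2 fold change -0.075), where 16.5% of all genes tested fell and 13.8% rose, and the other 18 did not pass. HSPA5, the chaperone BiP of the endoplasmic reticulum, averaged 249 ± 7.72 CPM with copanlisib and 421 ± 5.95 CPM with DMSO (-0.76 ± 0.044, edgeR adjusted p = 1.1e-12). PDIA4, a disulfide isomerase, fell by 0.51 ± 0.042 and the chaperone CALR by 0.42 ± 0.039. CRTAP, a part of the collagen prolyl 3-hydroxylation complex, rose by 0.47 ± 0.047 (edgeR adjusted p = 1.9e-08). At 4 h 14 fell and 1 rose in the fit of all libraries (median -0.12), where 20.7% of all genes fell and 17.7% rose. This 4 h median was -0.093 when replicate 3 stood alone for copanlisib. At 8 h 13 fell and 2 rose, with 18.3% of all genes lower and 14.8% higher.

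Of 25 tested genes of TGF-beta signalling and collagen transcription, 8 rose and 3 fell at 12 h (median 0.045), with 13.8% of all genes tested higher and 16.5% lower. ETS1, an ETS family transcription factor, averaged 122 ± 1.04 CPM with copanlisib and 86.2 ± 5.37 CPM with DMSO (0.50 ± 0.052, edgeR adjusted p = 3.6e-08). MRTFA, a coactivator of SRF, rose by 0.45 ± 0.057, while SRF itself fell by 0.53 ± 0.075. FLI1, another ETS factor, rose by 0.40 ± 0.053. At 4 h 11 of these genes rose and 6 fell (median 0.14, with 17.7% of all genes higher and 20.7% lower). This 4 h median was 0.045 when replicate 3 stood alone for copanlisib. At 8 h 7 rose and 2 fell (14.8% of all genes higher and 18.3% lower).

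Of 20 tested genes of other intermediate filaments and keratin partners, 3 rose and 3 fell at 12 h (median 0.037), shares close to the 13.8% of all genes that rose and the 16.5% that fell. At 8 h 4 rose and 4 fell (14.8% of all genes higher and 18.3% lower). At 4 h 3 rose and 4 fell (median -0.077, with 17.7% of all genes higher and 20.7% lower). This 4 h median was -0.065 when replicate 3 stood alone for copanlisib. VIM, the filament protein vimentin of mesenchymal and blood cells, averaged 827 ± 20.6 CPM with copanlisib and 673 ± 15.3 CPM with DMSO at 12 h (0.30 ± 0.039). JUP, the junction protein plakoglobin, rose by 0.46 ± 0.066, and LMNB1, lamin B1 of the nuclear lamina, fell by 0.30 ± 0.041. Among 15 tested regulators of keratin genes, 2 rose and 2 fell at 12 h (median -0.16), again close to the shares over all genes. TP63, the p53 family factor of stratified epithelia, averaged 71.4 ± 0.40 CPM with copanlisib and 48.7 ± 0.48 CPM with DMSO (0.55 ± 0.060, edgeR adjusted p = 7.0e-08). The AP-1 subunit JUN rose by 0.26 ± 0.059, and the AP-1 subunit FOSL1 fell by 1.44 ± 0.099. FOXA1, a liver and breast transcription factor, fell by 2.71 ± 0.49 at a level of 0.111 ± 0.053 CPM with copanlisib and 0.771 ± 0.24 CPM with DMSO. Its copanlisib mean lay below the floor of 3 reads (0.117 to 0.221 CPM), so the size of this fall is poorly known. At 4 h 1 of the 15 rose and 6 fell (median -0.31, with 17.7% of all genes higher and 20.7% lower). When replicate 3 stood alone for copanlisib, their 4 h median was -0.16. At 8 h 2 rose and 2 fell (14.8% of all genes higher and 18.3% lower).

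Some markers of stroma and of epithelium rose with copanlisib. Of 18 stroma markers, 16 had reads and 11 were tested, and 5 rose and none fell at 12 h (median 0.41, with 13.8% of all genes tested higher and 16.5% lower). At 4 h 2 rose and none fell, with 17.7% of all genes tested higher and 20.7% lower. The 4 h median of these markers was 0.22, and also 0.22 with replicate 3 as the only copanlisib library. Their summed level was 167 to 173 CPM in copanlisib and 130 to 137 CPM in DMSO libraries at 12 h, and 108 to 116 CPM with copanlisib and 95.1 to 108 CPM with DMSO at 4 h. The list's level rests mostly on ACTA2, SPARC and FN1, while LUM and BGN had no read in any library. SPARC, a collagen-binding matrix protein, averaged 42.6 ± 2.17 CPM with copanlisib and 32.1 ± 1.44 CPM with DMSO at 12 h (0.41 ± 0.066, edgeR adjusted p = 2.9e-05). THY1 rose by 0.71 ± 0.12 and the matrix protein FN1 by 0.48 ± 0.091. COL1A2 and COL3A1, genes of fibroblast collagens, were chosen as controls with almost no reads, so their low counts are not a result about stroma.

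Of 20 epithelium markers, 16 had reads and 9 were tested, and 3 rose and none fell at each time (median 0.30 at 12 h), where 17.7% of all genes tested were called higher at 4 h, 14.8% at 8 h and 13.8% at 12 h. The median at 4 h was 0.21, and 0.12 with replicate 3 as the only 4 h copanlisib library. Their summed level was 145 to 154 CPM in copanlisib and 100 to 104 CPM in DMSO libraries at 12 h. Most of it was SPINT1, a protease inhibitor, which averaged 115 ± 4.04 CPM in copanlisib and 76.6 ± 3.01 CPM in DMSO libraries (0.58 ± 0.054, edgeR adjusted p = 4.9e-09). CDH1, E-cadherin, rose by 0.49 ± 0.091. KRT5, KRT14, KRT20 and CLDN3 had no read in any library, and KRT19, chosen as a control with almost no reads, had 1. The part of the stroma and epithelium markers in the values of COL1A1, KRT8 and KRT18 was not tested.

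Of the 12 B cell markers listed, 11 had a median of at least 1 CPM, all but FCRL1. Their sum was 4912 to 6574 CPM over the 18 libraries. Of 11 tested, 8 rose and none fell at 12 h (median 0.27, with 13.8% of all genes tested higher and 16.5% lower), among them CD79B at 0.90 ± 0.080 and BLK at 0.63 ± 0.049 on the log2 scale. Summed markers were 12.3 to 21.4 CPM for T and NK cells, 5.02 to 11.3 CPM for myeloid cells, 0.624 to 1.74 CPM for endothelium and 8.84 to 14.3 CPM for retina. At 12 h, NKG7 fell among 3 tested T and NK cell markers, S100A9 rose among 3 myeloid markers, PECAM1 rose as the 1 endothelium marker tested and PDE6B rose among 2 retina markers. These lists are too small to compare with the shares over all genes. S100A9 had a 12 h mean of 0.325 ± 0.17 CPM in DMSO and 1.46 ± 0.039 CPM in copanlisib libraries. Its lowest library, at 0.156 CPM, lay within the floor of 3 reads (0.117 to 0.221 CPM), so the size of this rise is poorly known. PECAM1 was also low, with a 12 h mean of 0.71 ± 0.13 CPM in DMSO and 1.48 ± 0.095 CPM in copanlisib libraries. The labels' extraction text speaks of retinas, and of the 12 retina markers NRL had a median of 2.76 CPM and PDE6B of 7.21 CPM, while RPE65 had no read.

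**Figure D5:**
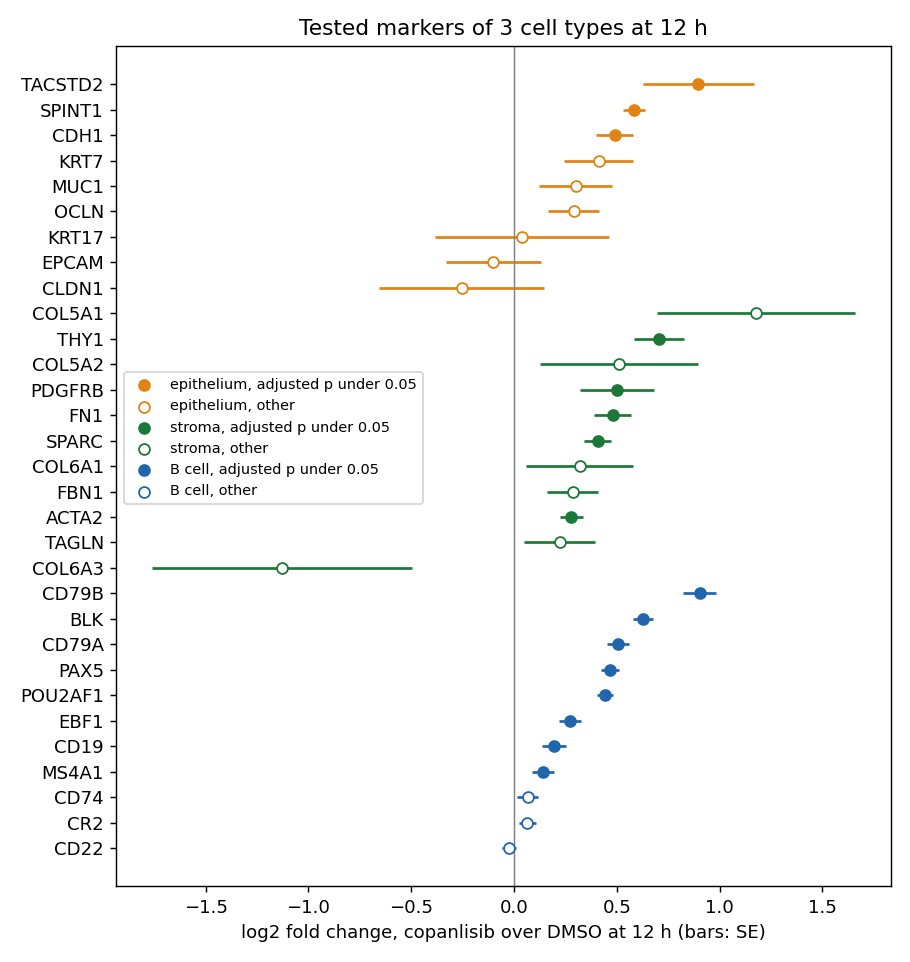
Log2 fold change of copanlisib over DMSO at 12 h (x axis, bars are SE) for the tested markers of epithelium (top), stroma (middle) and B cells (bottom); filled points have an edgeR adjusted p under 0.05. All filled points lie to the right of 0: 3 of 9 epithelium, 5 of 11 stroma and 8 of 11 B cell markers.

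The genes most like each member over the 18 libraries were neither collagens nor keratins. Likeness was the root mean square difference of log2 CPM after centring each gene on its mean, over 12703 protein-coding genes tested. It is a description, since all genes share the same libraries and depth. Nearest to COL1A1 were MST1 (0.129), WNT5B (0.146), PLXNB1 (0.148), HDAC7 (0.151) and TCL1A (0.164), against a median of 0.400 over all genes. KRT8 was the 10th nearest to COL1A1 and KRT18 the 137th. Nearest to KRT8 were CSRNP1 (0.094), GORASP1 (0.109), NUCB1 (0.110), TK2 (0.115) and CD79A (0.115), the last a chain of the B cell receptor complex. KRT18 was the 324th nearest to KRT8 (0.177), against a median of 0.328 over all genes. The root mean square deviation from the gene's own mean was 0.175 for KRT18 and 0.243 for KRT8. The distance between these 2 genes was thus no smaller than the spread of KRT18 itself. Nearest to KRT18 were WDTC1 (0.084), EXOC3 (0.085), DTX3 (0.086) and VAV2 (0.088), against a median of 0.279, with KRT8 in place 1142.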

How the data were processed

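RNA sequencing covered 18 HAIR-M libraries. The authors deposited STAR gene counts per library: raw counts without strand and for each strand. Reads were processed with CASAVA 1.7 and STAR 2.5.2b against hg38, per the submitters' processing notes, which name no annotation version. The column used held 94.3% to 95.3% of stranded reads. Summary lines were left out, and reads that map to several places, 9.21% to 10.1%, were not counted. Names came from a gene name table (41124 identifiers) and GENCODE 29 (15629), and 3730 stayed unnamed. edgeR 4.0.16 in R 4.3.3 fitted TMM-scaled counts of 16122 genes passing filterByExpr, with a mean per group; glmQLFTest was two-sided, with Benjamini-Hochberg adjustment over all genes tested and a threshold of 0.05. The procedure was tested on simulated data. Pseudogenes were aligned with blastn 2.17.0. Members and lists were chosen with earlier results of these data known. Named genes are all members and controls, collagens and keratins by level, up to 4 genes per list by adjusted p at 12 h, defining or abundant markers, the top pseudogenes and the 5 most like genes, of which 1 is not reported here; COL5A3, KRT8P33, KRT17 and KRT86 were named after their values were seen. Intervals and floors cover counting error or the spread between libraries only.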

Additional observations from a re-analysis of the deposited data

Results flagged for a closer look

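The effect of copanlisib, as log2 fold change over DMSO, differed between 12 h and 4 h for each of the 3 genes by the interaction test in edgeR. The difference, 12 h minus 4 h, was 0.828 for COL1A1 (adjusted p = 0.00050), 0.522 for KRT8 (adjusted p = 0.016) and 0.382 for KRT18 (adjusted p = 0.010). All 3 copanlisib libraries were above all 3 DMSO libraries at 12 h for each gene, and the groups overlapped at 4 h. Replicates 1 and 2 of copanlisib at 4 h had more unmapped reads and a higher mitochondrial share than the other 16 libraries, and their part in these differences was not tested beyond leaving them out. With replicate 3 as the only copanlisib library at 4 h, the difference was 0.633 for COL1A1 (adjusted p = 0.0018), 0.197 for KRT8 (adjusted p = 0.46) and 0.319 for KRT18 (adjusted p = 0.096).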

How the results depend on the processing

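The 12 h rise of all 3 genes kept its direction and call under every alternative run: DESeq2 size factors, no filter, DESeq2, limma-voom, counts without strand, only the libraries of the contrast, the replicate block and each library left out, and for the keratins summed pseudogenes and the split at the shared exons. Log2 fold changes ranged from 0.83 to 0.84 for COL1A1, 0.32 to 0.54 for KRT8 and 0.32 to 0.40 for KRT18, and without 1 library from 0.73 to 0.91, 0.49 to 0.56 and 0.28 to 0.38. The 4 h values near 0 changed sign easily. COL1A1 was at -0.0091 with limma-voom and -0.00039 with the libraries of the contrast only. KRT8 was at -0.0022 with limma-voom, -0.034 without strand, -0.0077 with pseudogenes summed and -0.085 outside the shared exons, and KRT18 at 0.032 without strand and 0.0017 outside them. Without 1 library the 4 h values ranged from -0.10 to 0.12 for COL1A1 and -0.17 to 0.11 for KRT8. With replicate 3 as the only 4 h copanlisib library, KRT8 passed at 0.34 and KRT18 was at 0.023. The 12 h minus 4 h difference then missed the threshold for KRT8 (0.20) and KRT18 (0.32). It also missed it for KRT8 with pseudogenes summed (0.32) or in the shared exons (0.27), and for KRT18 without strand (0.29); without 1 library it was 0.41 to 0.70 for KRT8. At 8 h, KRT8 was at 0.23 with pseudogenes summed and KRT18 at 0.36 in the shared exons. In DMSO at 12 h against 4 h, KRT8 was at 0.16 in the shared exons, and leaving out 1 library gave -0.34 to -0.17 for COL1A1 and -0.20 to -0.12 for KRT18. The causes were not tested. Genes called at 4 h numbered 6195, against 3733 with the contrast's libraries only and 3778 with replicate 3 alone. For 12 h minus 4 h there were 2688, against 1719 and 900 in those fits and 1596 to 5781 without 1 library. Replicate numbers did not pair the libraries (correlations of same-numbered deviations -0.034 to 0.10), and with the replicate block no call changed (12 h minus 4 h 0.82 for COL1A1, 0.53 for KRT8 and 0.38 for KRT18). With 214 to 695 reads per member and library, counting error is a visible part of the spread.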
